A study of Mus musculus with 12 samples.

Results

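The genes examined here were 45 genes that mark hepatocytes or are studied in liver tumours, and the H3K36ac peaks in and around them in mouse liver tumours after anti-PD-1 treatment. The genes were taken from a list. Each was extended from its RefSeq extent on the mm10 build by 10 kb on either side, and the result is called its locus. The 45 loci, 44 of protein-coding genes and that of the long non-coding RNA H19, stood among 21888 loci in all. They held 97 of the 109597 peaks in the 6 lists.

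The study profiled H3K36ac by chromatin immunoprecipitation and sequencing in whole liver tumour from 3 LysM-Cre and 3 Trem2-MKO mice. LysM-Cre mice carry a Cre recombinase driven by the lysozyme M gene of myeloid cells, with no knockout named. Trem2-MKO mice have Trem2, a lipid-sensing receptor of macrophages, deleted in myeloid cells; the Cre line that deletes it is not named in their labels. Mice of both groups had received anti-PD-1, an antibody against the checkpoint receptor PD-1 of T cells, and no untreated group was analysed here. The sources used here give neither the tumour model nor the age of the mice. The deletion lies in myeloid cells and the peaks come from whole tumour, so a difference in the make-up of the tumours and a difference within hepatocytes cannot be told apart.

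H3K36ac is the acetylation of a lysine in the tail of histone H3 and is known mainly from the promoters of active genes. Hepatocytes devote much of their transcription to secreted plasma proteins, to urea, glucose and bile acid metabolism, and to the transcription factors that keep these genes on. In liver tumours the fetal genes of the liver, the Wnt and Hippo pathways and growth factor receptors are often reactivated.

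The lists were short and the peaks weak. LysM-Cre replicates 1 to 3 held 18262, 29970 and 19981 peaks, and Trem2-MKO replicates 1 to 3 held 29906, 6840 and 4638. The median peak of a list stood 2.63-fold to 3.25-fold above its local background. Its summit held 23 fragments in Trem2-MKO replicate 3, 20 in replicate 2 and 11 in each of the other 4 libraries. A locus was called marked in a library when a peak overlapped it by 1 bp or more, and a locus without a peak is not shown to lack the mark. Whole-genome amplification preceded library preparation, so fragments are not independent molecules and these counts show counting error only.

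Promoter sequences are shown for 3 of the 5 genes whose starts carried peaks. Those of Hnf4a and Akr1b8, which held 2 motif matches each, are left out. Fgg, the gamma chain of fibrinogen, was the only gene of the set whose promoter window was overlapped by a peak, and Hpx, the plasma haem carrier, and Afp, the fetal counterpart of albumin, had peaks just upstream of theirs. RefSeq promoter windows of GRCm38.p6, from 250 bases before the start to 50 after it, matched 35 of the 45 genes and gave their strand. Capitals in Fgg mark the 16 bases that lay under the peaks of both libraries that overlapped the window. Capitals in Hpx and Afp mark matches to the motifs searched.
Fgg, chr3:83007474-83007773, plus strand: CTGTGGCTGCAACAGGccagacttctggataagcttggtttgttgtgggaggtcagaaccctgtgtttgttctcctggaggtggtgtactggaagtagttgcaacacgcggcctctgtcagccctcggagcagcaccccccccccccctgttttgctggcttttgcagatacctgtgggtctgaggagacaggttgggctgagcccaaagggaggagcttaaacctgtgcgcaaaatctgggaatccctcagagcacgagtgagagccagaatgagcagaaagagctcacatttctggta
Hpx, chr7:105600067-105600366, minus strand: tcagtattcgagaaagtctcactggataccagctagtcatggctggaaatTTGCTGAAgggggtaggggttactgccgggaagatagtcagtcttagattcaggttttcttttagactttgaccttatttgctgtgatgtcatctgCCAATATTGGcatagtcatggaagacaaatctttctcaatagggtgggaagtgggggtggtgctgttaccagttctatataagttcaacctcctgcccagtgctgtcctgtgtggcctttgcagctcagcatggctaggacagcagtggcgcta
Afp, chr5:90490464-90490763, plus strand: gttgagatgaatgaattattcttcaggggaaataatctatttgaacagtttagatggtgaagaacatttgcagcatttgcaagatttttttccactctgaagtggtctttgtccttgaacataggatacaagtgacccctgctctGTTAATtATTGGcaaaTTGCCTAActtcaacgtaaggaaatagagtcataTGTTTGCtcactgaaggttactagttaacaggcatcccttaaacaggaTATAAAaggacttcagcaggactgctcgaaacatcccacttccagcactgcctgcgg

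The motifs were searched on both strands. They were the TATA box TATAAA, the HNF1 half-site GTTAAT, the FOXA site TGTTTNC, the C/EBP site TTGCNNAA and the CCAAT box. They were found in 12.6%, 6.25%, 18.1%, 10.2% and 38.2% of all 21263 promoter windows. The Afp window held a match to each of the 5, from GTTAAT 105 bases upstream of the start to TATAAA 7 bases upstream. The Hpx window held TTGCTGAA 200 bases upstream and 2 abutting CCAAT matches on opposite strands, and the Fgg window held none. No matches overlapped each other, and a match or its absence describes these letters alone. In the RefSeq table, 1 of the 44 promoter windows of the 35 genes was overlapped by a peak (2.27%), against 987 of all 21263 (4.64%).

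Of the 45 loci, 31 had a peak in at least 1 library (68.9%), against 71.7% of all loci and 70.4% of other protein-coding loci of like length (gene length within 25%). LysM-Cre replicates 1 to 3 had 14, 18 and 13 of the 45 loci marked, and Trem2-MKO replicates 1 to 3 had 17, 5 and 3. Trem2-MKO replicate 1 thus lay within the range of the LysM-Cre libraries, and Trem2-MKO replicates 2 and 3, which held the fewest peaks genome-wide, lay below it. The mean was 15 ± 2.65 loci (SD, n = 3) in LysM-Cre and 8.33 ± 7.57 (SD, n = 3) in Trem2-MKO, so that the Trem2-MKO libraries spread more widely than the means differed. No p-value was taken, since the genes were chosen with results known.

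**Figure D1:**
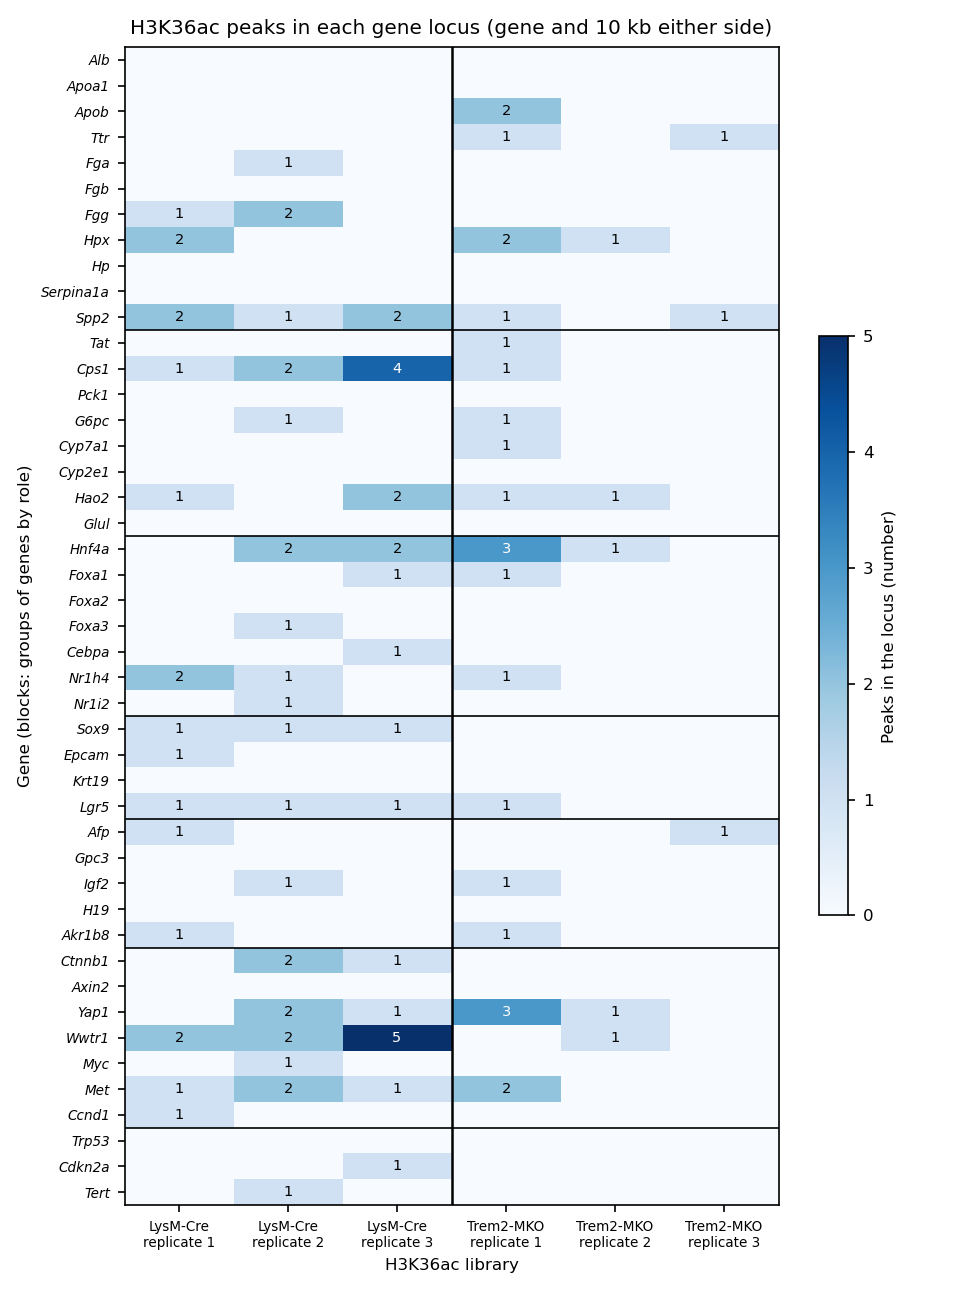
Number of H3K36ac peaks (shade and printed number; blank is 0) in the locus of each of the 45 genes (rows, in blocks by role) in each of the 6 libraries (columns, LysM-Cre left of the vertical line). Spp2 is marked in 5 libraries and 7 other genes in 4, and the columns of Trem2-MKO replicates 2 and 3 hold 5 and 3 marked loci.

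The share of the set that was marked followed the share of other loci in the same library. It was 31.1%, 40% and 28.9% in LysM-Cre replicates 1 to 3, against 28.6%, 39.1% and 30.4% of all loci. In Trem2-MKO replicates 1 to 3 it was 37.8%, 11.1% and 6.67%, against 40.6%, 14.1% and 8.16% of all loci. Divided by the share of loci of like length, the set stood at 1.19, 1.10 and 1.02 in LysM-Cre (mean 1.10 ± 0.0851, SD, n = 3) and at 1.00, 0.898 and 1.05 in Trem2-MKO (mean 0.983 ± 0.0767, SD, n = 3). These ratios lay close to 1 in every library, and the ranges of the genotypes overlapped.

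**Figure D2:**
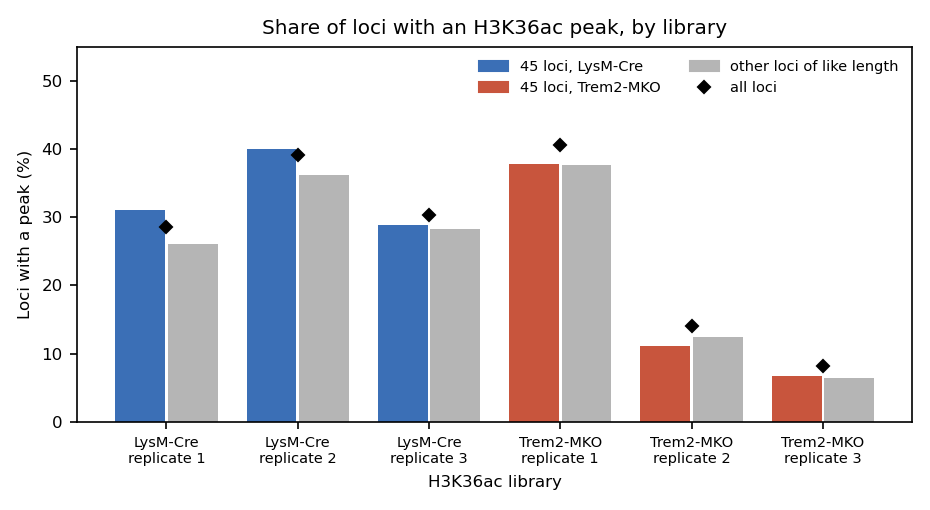
Percentage of the 45 loci with a peak (blue, LysM-Cre; red, Trem2-MKO) in each library, beside other loci of like length (grey bars) and all loci (black diamonds). The coloured and grey bars rise and fall together, from 40% against 36.2% in LysM-Cre replicate 2 to 6.67% against 6.37% in Trem2-MKO replicate 3.

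Recurrence across libraries was spread unevenly over the genes. Peaks lay in 2 or more libraries at 19 loci (42.2%; all loci, 44.9%; like length, 41.4%) and in 4 or more at 8 loci (17.8%; all loci, 12.5%; like length, 9.78%). Those 8 were Spp2, Cps1, Hnf4a, Hao2, Lgr5, Yap1, Wwtr1 and Met. Longer genes were marked more often, as genome-wide: 9 of the 11 genes of 30 kb or more had a peak (all such loci, 91.3%), against 12 of the 23 genes under 12 kb (all such loci, 54.3%).

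Only part of the hepatocyte marker genes carried peaks. Of 6 markers, Hnf4a, Cps1 and Ttr were marked in some library, and the loci of Alb (serum albumin), Apoa1 (the main protein of high-density lipoprotein) and Serpina1a (alpha-1-antitrypsin) were empty in all 6. Loci of like length to these 6 were marked in 73.1% of cases. The peaks thus do not mark the tissue as hepatocyte by these genes, and hepatocyte is used here as the name of the gene set, not of the cells measured.

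Among the plasma protein genes, 6 of 11 loci were marked in any library (54.5%; like length, 63.6%), from 11 LysM-Cre and 9 Trem2-MKO peaks. The empty loci were Alb, Apoa1, Serpina1a, Fgb (the fibrinogen beta chain) and Hp (haptoglobin, which binds free haemoglobin). Spp2, secreted phosphoprotein 2, a protein made by hepatocytes and found in plasma and bone, stood out within the group by recurrence. Spp2 (chr1:88406966-88428300, plus strand) had 2, 1 and 2 peaks in LysM-Cre replicates 1 to 3 and 1, 0 and 1 in Trem2-MKO replicates 1 to 3. The genotypes overlapped in this count (exact two-sided permutation p = 0.3 with 3 libraries a genotype). Its 7 peaks compared with a mean of 1.66 over 2745 loci of like length, of which 0.838% had as many.

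The LysM-Cre peaks of Spp2 fell on a shared region upstream of the gene, chr1:88400174-88400725, with summits 6.56, 6.54 and 6.51 kb before the start in replicates 1 to 3. These peaks had folds over background of 3.74, 7.30 and 5.02 and held 18, 39 and 30 fragments. By p-value they ranked 1186th of 18262, 1st of 29970 and 8th of 19981 peaks of their lists. No Trem2-MKO library had a peak in that region. Regions with peaks of all 3 LysM-Cre and no Trem2-MKO libraries numbered 52 of all 104601 merged regions (0.0497%). Most merged regions could not meet that rule, since only 4631 held peaks of 2 or more libraries.

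In Trem2-MKO, Spp2 was marked in its body instead, at chr1:88411698-88412158, in replicates 1 and 3. The folds there were 2.31 and 1.98, and the summits held 38 and 83 fragments over local backgrounds of 15.9 and 33.0 fragments. The other peaks of the set in those 2 libraries had backgrounds of at most 4.24 fragments in replicate 1 and 7.0 in replicate 3. A high local background went with these body peaks. The LysM-Cre upstream peaks also had the highest backgrounds of the set in replicates 1 to 3, at 4.08, 4.48 and 5.18 fragments. Other peaks of the set reached at most 2.91, 3.81 and 3.45 fragments there. The part of the background in either group of peaks was not tested. LysM-Cre replicate 1 also had a peak at the far end of Spp2, of 2.93-fold and 9 fragments, and LysM-Cre replicate 3 one 6.5 kb beyond that end, of 2.66-fold and 8 fragments.

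**Figure D3:**
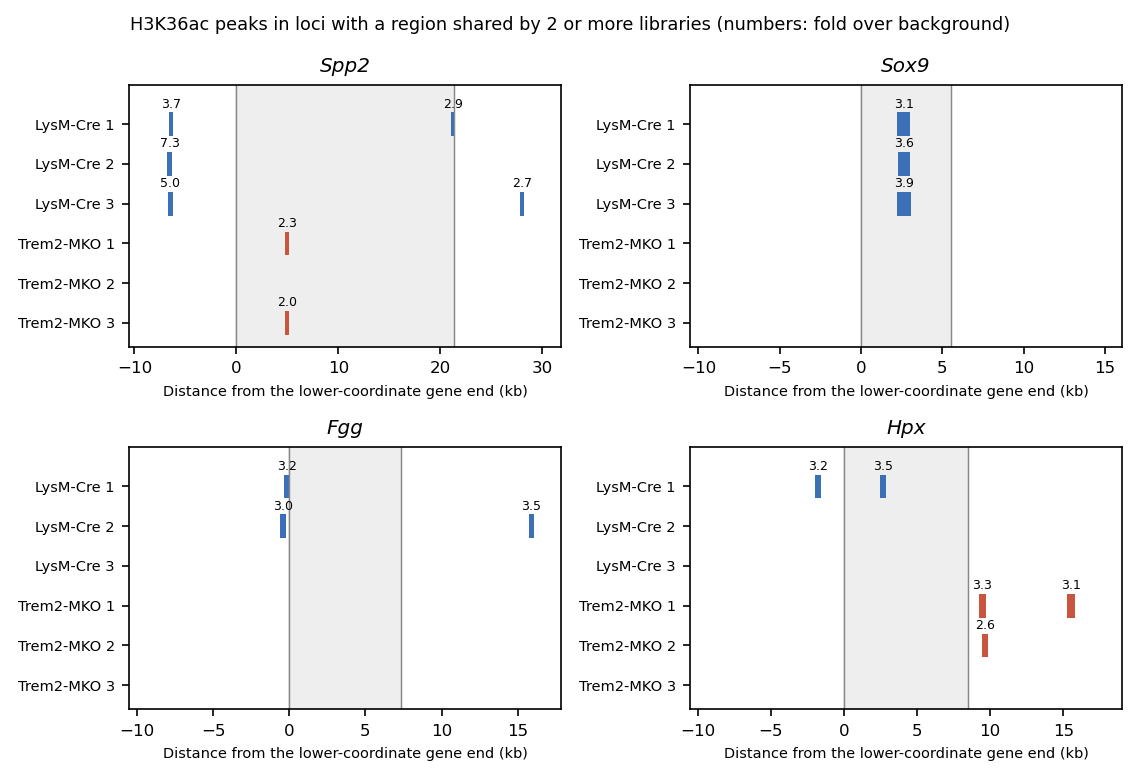
Peaks of each library (rows) along the loci of Spp2, Sox9, Fgg and Hpx, in kb from the lower-coordinate gene end; grey is the gene, blue LysM-Cre, red Trem2-MKO, and each printed number is the peak's fold over background. The Spp2 upstream region and the Sox9 body region hold 3 LysM-Cre peaks each, and the Fgg and Hpx starts hold 2 peaks of a single genotype each.

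The start of Fgg (chr3:83007724-83015056) was marked in LysM-Cre alone, with 1, 2 and 0 peaks in LysM-Cre replicates 1 to 3 and 0, 0 and 0 in Trem2-MKO. The start peaks of replicates 1 and 2 had summits 248 and 384 bases upstream and overlapped within chr3:83007092-83007753. They covered 280 bases (replicate 1) and 16 bases (replicate 2) of the promoter window printed above, with folds of 3.22 and 2.97 and 10 fragments each. The remaining peak of replicate 2, of 3.51-fold, lay between Fgg and its neighbour Fga, the fibrinogen alpha chain, and was the only peak in the Fga locus; it counts in both loci. LysM-Cre replicate 3 had no peak in either, so the LysM-Cre libraries overlapped the Trem2-MKO ones at 0.

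Hpx (chr7:105591611-105600116, minus strand) showed start peaks in Trem2-MKO instead. It had 2, 0 and 0 peaks in LysM-Cre replicates 1 to 3 and 2, 1 and 0 in Trem2-MKO, so the genotypes overlapped. The start peaks of Trem2-MKO replicates 1 and 2 had summits 0.875 and 1.13 kb upstream, folds of 3.33 and 2.63, and 11 and 19 fragments, within chr7:105600844-105601479. The LysM-Cre replicate 1 peaks lay in the body (3.51-fold) and beyond the far end (3.22-fold), and a second Trem2-MKO replicate 1 peak lay 6.76 kb from the gene (3.12-fold). The total of 5 peaks compared with a mean of 1.12 at like length, where 1.41% of loci had as many.

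Apob and Ttr were marked in Trem2-MKO alone. Apob, the structural protein of very-low-density lipoprotein, had 2 peaks in Trem2-MKO replicate 1, a body peak of 3.05-fold and a flank peak of 2.77-fold, and none in the other 5 libraries. Ttr, the carrier of thyroxine and retinol-binding protein, had a body peak of 3.11-fold in Trem2-MKO replicate 1 and a flank peak of 2.45-fold in replicate 3. Neither gene was marked in all 3 Trem2-MKO libraries, and for Ttr the counts of the genotypes overlapped at 0.

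Of the metabolic enzyme genes, 5 of 8 were marked (62.5%; like length, 69.4%), from 11 LysM-Cre and 6 Trem2-MKO peaks. Pck1 (gluconeogenesis), Cyp2e1 (ethanol and drug oxidation) and Glul (glutamine synthetase, a Wnt target in hepatocytes around the central vein) had none. Cps1, the first enzyme of the urea cycle, had 1, 2 and 4 peaks in LysM-Cre replicates 1 to 3 and 1, 0 and 0 in Trem2-MKO. LysM-Cre replicate 1 and Trem2-MKO replicate 1 tied at 1 peak (exact two-sided permutation p = 0.2 with 3 libraries a genotype). Cps1 spans 109 kb, and its 8 peaks compared with a mean of 5.62 at like length; all 8 lay in the body, with folds of 2.25 to 3.56, and no 2 overlapped.

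Hao2, a peroxisomal hydroxyacid oxidase of liver and kidney, had 1, 0 and 2 peaks in LysM-Cre replicates 1 to 3 and 1, 1 and 0 in Trem2-MKO. The genotypes overlapped, and its strongest peak, in LysM-Cre replicate 3, lay 3.61 kb before the start with a fold of 4.13 and 13 fragments. Its 5 peaks stood above the mean of 1.63 at like length, but loci of like length on chromosome 3, where Hao2 lies, had a mean of 3.50, and 27.7% of them had as many. G6pc, the last enzyme of glucose release, had 1 peak in LysM-Cre replicate 2 at its far end (3.24-fold) and 1 in Trem2-MKO replicate 1 in its body (3.33-fold, 1010 bp wide). Tat (tyrosine breakdown) and Cyp7a1 (the rate-limiting enzyme of bile acid synthesis) had a single flank peak each, both in Trem2-MKO replicate 1, of 2.77-fold and 2.17-fold.

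The liver transcription factors and nuclear receptors were marked at 6 of 7 loci (85.7%; like length, 71.1%), from 11 LysM-Cre and 6 Trem2-MKO peaks. Foxa2, a pioneer factor that opens liver enhancers, was the empty one. Hnf4a, the nuclear receptor that maintains hepatocyte identity, had 0, 2 and 2 peaks in LysM-Cre replicates 1 to 3 and 3, 1 and 0 in Trem2-MKO. Both genotypes thus held 4 peaks, in 2 libraries each. The 8 peaks of Hnf4a compared with a mean of 3.67 at like length, where 6.28% of loci had as many. Loci of like length on its own chromosome 2 had a mean of 4.63, and 10.1% of them had as many. The single start peak of Hnf4a, in LysM-Cre replicate 2, had its summit 0.943 kb upstream and a fold of 3.24. A further 4 peaks lay 4.33 to 8.87 kb beyond the far end and 3 in the body, without overlapping each other.

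Foxa1, another pioneer factor, had a flank peak in LysM-Cre replicate 3 of 4.34-fold with 16 fragments, 4.93 kb beyond its far end, and a flank peak in Trem2-MKO replicate 1 of 2.5-fold with 8 fragments, 6.09 kb before its start. Foxa3, the third of the family, had 1 peak at its far end in LysM-Cre replicate 2 (3.32-fold). Nr1h4, the bile acid receptor FXR, had 2, 1 and 0 peaks in LysM-Cre replicates 1 to 3 and 1, 0 and 0 in Trem2-MKO. The Trem2-MKO peak of Nr1h4 was at its far end (2.70-fold), and the 4 peaks compared with a mean of 4.27 at like length. On chromosome 10, where Nr1h4 lies, that mean was 2.85, and 30.6% of such loci had as many. Cebpa, a factor of hepatocyte differentiation, and Nr1i2, the xenobiotic receptor PXR, had 1 peak each, in LysM-Cre replicates 3 and 2.

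Of the biliary and progenitor genes, Sox9, Epcam and Lgr5 were marked and Krt19, the keratin of bile duct cells, was not (75% marked; like length, 69.3%). Of the 8 peaks 7 came from LysM-Cre libraries (87.5%), which held 62.3% of the peaks over all loci and 67.3% of those of the 45 loci. Sox9, the transcription factor of bile duct and progenitor cells, was the only gene of the 45 with a peak in all 3 LysM-Cre and no Trem2-MKO library. Of all loci, 1.39% met that rule, and of loci of like length to Sox9, 0.656%. No gene of the set met the reverse rule, which 0.101% of all loci did.

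Sox9 (chr11:112782210-112787757) had 1, 1 and 1 peaks in LysM-Cre replicates 1 to 3 and 0, 0 and 0 in Trem2-MKO, so the groups did not overlap. The peaks shared 1 place in the gene body, chr11:112784412-112785253, with summits 2.92, 2.81 and 2.89 kb from its lower-coordinate end. Their folds were 3.06, 3.62 and 3.93, with 10, 13 and 13 fragments at the summit, and they were 826, 736 and 833 bp wide. Of the 97 peaks of the set, 9.28% reached 700 bp, against 4.64% of all peaks. The exact two-sided permutation p was 0.1 with 3 libraries a genotype, the smallest that 20 assignments allow, and the Benjamini-Hochberg adjusted p over all 21888 loci was 1.

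The Sox9 separation depended on the strength asked of a peak. The −log10 p was 4.08, 5.69 and 6.26 in LysM-Cre replicates 1 to 3, so a limit of 5 removed the peak of replicate 1 and ended the call; a q-value limit of 0.01 and lists of 4638 peaks each ended it too. A flank of 25 kb also ended it, whereas flanks of 5 kb or none left Sox9 as the only such gene. Leaving out libraries could not end it, since Sox9 had a peak in all LysM-Cre and no Trem2-MKO libraries. That covers each library in turn and LysM-Cre against Trem2-MKO replicate 1 alone, a setting chosen after the data were seen.

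Lgr5, a receptor that amplifies Wnt signals, had 1, 1 and 1 peaks in LysM-Cre replicates 1 to 3 and 1, 0 and 0 in Trem2-MKO, so the groups overlapped at 1. The 4 peaks lay at 4 different places along a gene of 137 kb, and the strongest, a body peak of LysM-Cre replicate 1, was 4.10-fold with 13 fragments. LysM-Cre replicate 3 had its peak at a gene end (3.25-fold). Its 4 peaks compared with a mean of 7.02 at like length, and of 4.35 at like length on its own chromosome 10, where 63.2% of loci had as many. Epcam, a surface marker of bile duct and progenitor cells, had 1 body peak of 3.12-fold, in LysM-Cre replicate 1.

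The oncofetal genes, expressed in fetal liver and again in liver tumours, were marked at 3 of 5 loci (60%; like length, 72.5%), with 3 peaks in each genotype. Gpc3, a surface proteoglycan of hepatocellular carcinoma, and H19, the imprinted RNA beside Igf2, had no peak. Afp, the serum marker of liver cancer, had 1, 0 and 0 peaks in LysM-Cre replicates 1 to 3 and 0, 0 and 1 in Trem2-MKO. The LysM-Cre peak of Afp had its summit 0.963 kb upstream of the start, outside the promoter window printed above, with a fold of 3.22 and 10 fragments; the Trem2-MKO peak lay 5.51 kb beyond the far end (2.82-fold).

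Igf2, a fetal growth factor, had a body peak in LysM-Cre replicate 2 of 4.51-fold with 17 fragments and another in Trem2-MKO replicate 1 of 2.94-fold with 10, near each other and not overlapping. Akr1b8, an aldo-keto reductase raised in rodent liver tumours, had a start peak in LysM-Cre replicate 1 (0.792 kb into the gene, 3.51-fold) and a body peak in Trem2-MKO replicate 1 (2.5-fold). No library had both genes marked except Trem2-MKO replicate 1. Gpc3, at 342 kb the longest gene of the set, lies on chromosome X, where the lists held between 10 and 236 peaks. Loci of like length had a mean of 15.9 peaks on all chromosomes and of 2.57 on X, where 92.9% of 14 such loci were marked in some library.

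The Wnt, Hippo and growth pathway genes were marked at 6 of 7 loci (85.7%; like length, 80.5%) and held the most peaks, 21 from LysM-Cre libraries (75%; all loci, 62.3%) and 7 from Trem2-MKO libraries. Wwtr1 alone held 9 of the 21, and the remaining genes split into 12 and 6 (66.7% LysM-Cre). Axin2, a feedback inhibitor and common readout of Wnt signalling, was empty. Wwtr1 (TAZ), the Hippo coactivator, had 2, 2 and 5 peaks in LysM-Cre replicates 1 to 3 and 0, 1 and 0 in Trem2-MKO. Every LysM-Cre library was above every Trem2-MKO library (exact two-sided permutation p = 0.1, the smallest possible with 3 libraries a genotype; adjusted p 1). Such an order with LysM-Cre higher was found at 1.91% of all loci, and at Sox9 and Wwtr1 in this set; the reverse, at 0.105% of all loci and at none of the set.

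The 10 peaks of Wwtr1 lay at 10 different places in 120 kb, 9 of them in the body, with folds of 2.47 to 3.51. Loci of like length had a mean of 6.13 peaks, and those on its own chromosome 3 a mean of 11.6, of which 7.62 were LysM-Cre peaks. Chromosome 3 was densely marked in every LysM-Cre library, at 42.3%, 55.4% and 63.2% of its loci in replicates 1 to 3. In Trem2-MKO replicates 1 to 3 it was marked at 57.3%, 32.3% and 7.12% of its loci, above the share of all loci in replicates 1 and 2 and below it in replicate 3.

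Yap1, the partner coactivator of Wwtr1, had 0, 2 and 1 peaks in LysM-Cre replicates 1 to 3 and 3, 1 and 0 in Trem2-MKO, so the genotypes overlapped. Its peaks included 1 at the far end in LysM-Cre replicate 2, 1178 bp wide (3.24-fold), and the lowest fold of the set, 1.82, in Trem2-MKO replicate 2. Met, the receptor of hepatocyte growth factor, had 1, 2 and 1 peaks in LysM-Cre and 2, 0 and 0 in Trem2-MKO, all in the body. The strongest Met peak was that of Trem2-MKO replicate 1, at 3.88-fold with 13 fragments, and the 6 peaks compared with a mean of 5.70 at like length. On chromosome 6, where Met lies, that mean was 4.71, and 32.3% of such loci had as many.

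Ctnnb1 (beta-catenin, the Wnt effector) had 0, 2 and 1 peaks in LysM-Cre replicates 1 to 3 and 0, 0 and 0 in Trem2-MKO, with folds of 2.75 to 3.78. LysM-Cre replicate 1 had none, so the groups overlapped at 0. Myc, the growth transcription factor, had a body peak of 4.17-fold with 18 fragments in LysM-Cre replicate 2, the fifth highest fold of the set. Ccnd1 (cyclin D1), also a growth gene, had a single flank peak in LysM-Cre replicate 1 (3.22-fold). Of the tumour suppressor and telomerase genes, Trp53 (p53) was empty, Cdkn2a, which encodes cell cycle inhibitors, had a flank peak in LysM-Cre replicate 3 (3.84-fold) and Tert, the telomerase catalytic subunit, a flank peak in LysM-Cre replicate 2 (2.43-fold).

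Counted by genotype, 12 of the 45 loci were marked in LysM-Cre alone (26.7%; all loci, 24.3%; like length, 25.9%). Apob, Ttr, Tat and Cyp7a1 were marked in Trem2-MKO alone (4 loci, 8.89%; all loci, 12.1%; like length, 12.8%), and 15 loci in both (33.3%; all loci, 35.4%; like length, 31.8%). Each of these shares lay near its background. No locus of the 21888 passed an adjusted p of 0.05 by the exact permutation test, and none had an unadjusted p under 0.05, which 3 against 3 libraries cannot reach. Leaving out Trem2-MKO replicate 1 raised the loci of the set marked in all LysM-Cre and no remaining Trem2-MKO libraries from Sox9 alone to Cps1, Sox9, Lgr5 and Met, with all loci at 4.63%. Without LysM-Cre replicate 1 they were Sox9 and Ctnnb1 (all loci, 4.06%), without LysM-Cre replicate 3 Fgg and Sox9 (3.78%), and without Trem2-MKO replicate 2 Sox9 and Wwtr1 (1.72%). In that last case Ttr was marked in both remaining Trem2-MKO libraries and in no LysM-Cre library, as were 0.576% of all loci.

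Most peaks of the set lay inside genes and away from their ends. Each peak was put at a gene end when it came within 1 kb of either annotated end, otherwise in the body, otherwise in the flank. Of 98 peaks, the peak shared by Fga and Fgg counted in each locus, 13 were at a gene end (13.3%), 53 in the body (54.1%) and 32 in the flank (32.7%). Loci of like length had 8.89%, 59.7% and 31.4%, and the length of the 45 loci itself divided into 7.40%, 59.3% and 33.3%. The body and flank shares lay near the length available, and the gene-end share above it. A peak counted at a gene end on an overlap of 1 bp, and peaks had a median width of 413 bp. The rule thus itself raises the gene-end share above that of length. Counted by summit, the gene-end share was 10.3%. By genotype the gene-end share was 15.2% in LysM-Cre (like length, 9.38%) and 9.38% in Trem2-MKO (like length, 8.09%). The libraries of a genotype differed. The share was 22.2%, 20% and 4.35% in LysM-Cre replicates 1 to 3 (like length, 9.35%, 8.66% and 10.4%). In Trem2-MKO replicates 1 to 3 it was 8.33%, 20% and 0% (like length, 7.25%, 11.2% and 8.96%), the last 2 from 5 and 3 peaks.

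**Figure D4:**
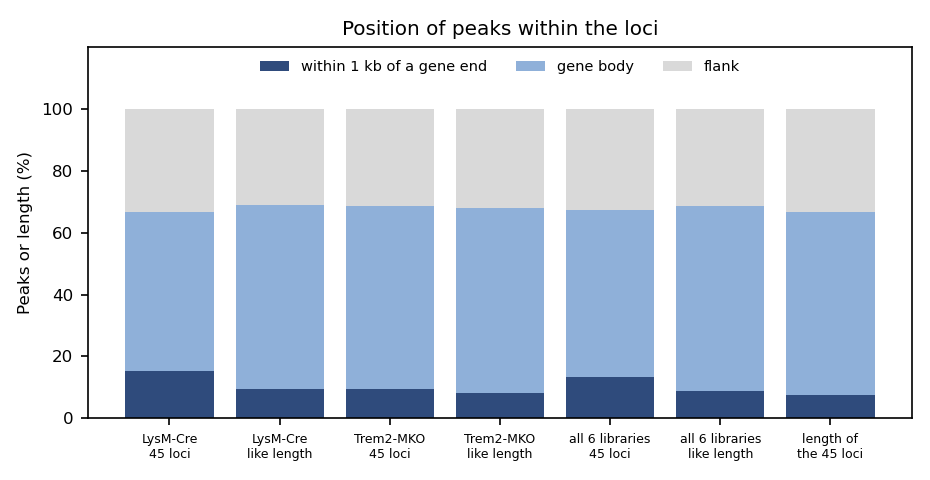
Share of peaks (%) within 1 kb of a gene end, in the gene body and in the flank for the 45 loci and for loci of like length, by genotype and over all 6 libraries; the last bar divides the length of the 45 loci the same way. The gene-end share is 13.3% for the 45 loci and 8.89% at like length over all 6 libraries.

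Gene-end peaks were found at 11 of the 45 genes (24.4%; all loci, 16.6%; like length, 17.0%): Afp, Fgg, Hpx, Hnf4a and Akr1b8 at the start, G6pc, Foxa3, Nr1h4, Spp2 and Yap1 at the other end, and Lgr5, whose strand is not in the table. The start was thus marked at 5 of the 35 genes with a strand (14.3%; all such genes, 9.16%; like length, 9.66%), and the other end likewise at 5 (all such genes, 8.77%). Only Fgg and Hpx had a gene-end peak in 2 libraries (2.17% of all loci). The gene-end peaks were weak: of 30 peaks with a −log10 p of 5 or more, 1 was at a gene end (3.33%; like length, 10.3%), and of 15 with a q-value of 0.01 or less none was (like length, 12.1%). Among the 68 weaker peaks 12 were at a gene end (17.6%; like length, 8.09%).

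By strength, the set was near all peaks at the stricter limit and below them at the looser. Of the 97 peaks, 29 had a −log10 p of 5 or more (29.9%; all peaks, 35.8%), and 15 had a q-value of 0.01 or less (15.5%; all peaks, 15.9%). A total of 46 (47.4%) had a p-value stronger than the median of their own list. Folds ran from 1.82 to 7.30 with a median of 3.12. The 5 highest were all from LysM-Cre libraries: the Spp2 upstream peaks at 7.30 and 5.02, Igf2 at 4.51, Foxa1 at 4.34 and Myc at 4.17. LysM-Cre libraries held 65 of the 97 peaks. Folds are not on a common scale across lists: the list medians were 2.63 and 2.68 in Trem2-MKO replicates 2 and 3 and 3.01 to 3.25 elsewhere. This order is therefore no contrast between genotypes.

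**Figure D5:**
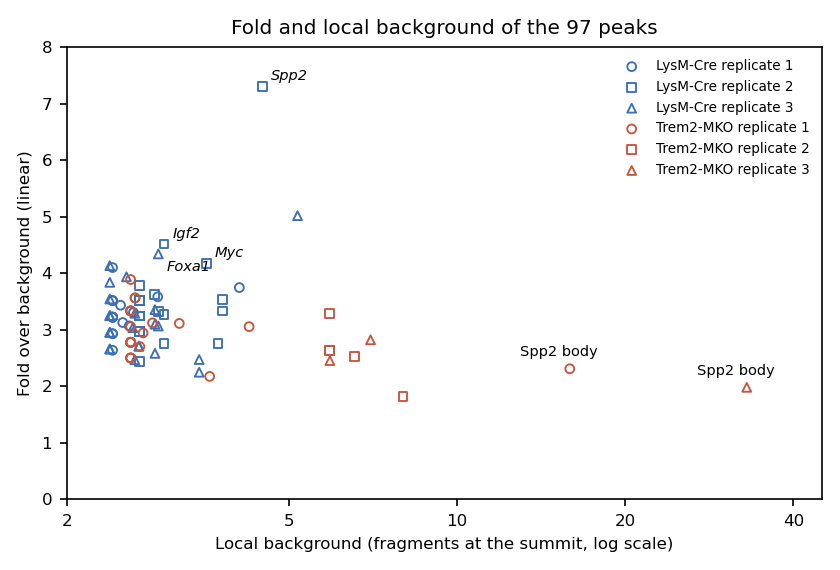
Fold over background (linear axis) against the local background in fragments (log axis) for each of the 97 peaks, by library. The Spp2 upstream peaks reach 7.30-fold and 5.02-fold at backgrounds of 4.48 and 5.18 fragments, the highest of the set in their libraries. The Spp2 body peaks of Trem2-MKO replicates 1 and 3 have folds of 2.31 and 1.98 over 15.9 and 33.0 fragments.

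Few of these peaks recurred at the same place. Merged where they overlapped, the peaks formed 90 regions, of which 5 held peaks of 2 or more libraries (5.56%; all regions, 4.43%). The 5 were the Spp2 upstream and body regions, the Sox9 body region and the starts of Fgg and Hpx. Each of the 5 was shared within a single genotype, as were 49.6% of the 4631 shared regions in all. Loci marked in several libraries, such as Cps1, Hnf4a, Hao2, Lgr5, Yap1, Wwtr1 and Met, therefore held peaks at different places in different libraries.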

How the data were processed

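Peak lists of 6 H3K36ac libraries were used; the 6 inputs were not analysed here. Per the labels' protocols, tumour was fixed in 1% formaldehyde, sheared and, after immunoprecipitation, put through whole-genome amplification. The submitters' processing notes name MACS2, Bowtie2, Trimmomatic, Picard, SAMtools and deepTools and the mm10 build; their versions are not given in the sources used here. Removal of duplicates, a pooled control, a p-value limit of 0.01 and a cap of 500000 peaks per library are read from the names of the authors' lists. The deposited lists give each peak a score, a fold (ratio) over background, −log10 p-values and q-values, and a summit offset. These are the authors' values, used within a list to describe, rank or filter peaks. The highest and lowest folds of the set were also named across lists.

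Loci came from RefSeq genes of GRCm38.p6, 21887 protein-coding genes and H19. Fragments at a summit were recovered as the whole number and Poisson background that return both fold and p, with pileups scaled by 0.903 and 0.798 in Trem2-MKO replicates 2 and 3 and by 1 elsewhere; the largest error on the −log10 scale was 0.000127. Like-length shares averaged, over the genes, all other loci within 25% of the gene's length. Peak counts per locus were compared by an exact two-sided permutation test over 20 assignments, with Benjamini-Hochberg adjustment over all loci. The steps were tested on simulated data and run in Python 3.11.15 with numpy 2.4.6, pandas 2.3.3, scipy 1.17.1 and matplotlib 3.10.9.

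The genes and lists were chosen with earlier results of these data known, so no p-value is given for the set. Genes named with values were those with peaks in 2 or more libraries, with a gene-end peak, or with 1 of the 5 highest folds, and, from the further lists, genes with a gene-end peak in 2 or more libraries; peaks of other genes are given in brief. The labels call the libraries replicates and the design text counts 3 mice per genotype, without tying each library to a mouse, so p-values measure the spread between these libraries, which may be technical. Alternatives changed the peak threshold, the number of peaks per list, the flank, the gene-end window, the length match and the libraries used.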

Additional observations from a re-analysis of the deposited data

How the results depend on the processing

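Of 86 alternative values of the results without a test, 60 stayed within the spread between replicates or within 1.5 times the count, and 26 moved. The mean of marked loci in LysM-Cre, 15, was 7.67 with the −log10 p limit of 5, 3.67 with the −log10 q limit of 2 and 3.67 with equal lists, as fewer peaks were used; with flanks of 5 kb, 25 kb and none it was 12.3, 20 and 9.33, as the loci changed in size. Without single replicates it ran from 13.5 to 16. The Trem2-MKO mean, 8.33, was 2.33, 1.33 and 3 with these limits and equal lists, and 7, 12.7 and 5.33 with these flanks. With equal lists the genotypes thus stood at 3.67 and 3. All these Trem2-MKO values counted as unmoved, since the SD between the Trem2-MKO libraries was 7.57. For this mean, counting as unmoved therefore says little of stability. The Trem2-MKO mean ran from 4 to 11 without single replicates and was 17 with Trem2-MKO replicates 2 and 3 left out, an alternative chosen after seeing the data. The count of loci marked by LysM-Cre alone, 1, was 0 at both stricter limits, with equal lists and with the 25 kb flank. It ran from 1 to 4 without single replicates and was 2 without Trem2-MKO replicates 2 and 3 (all loci, 1.91%). Leaving out libraries cannot lower this count. The count by Trem2-MKO alone, 0, ran from 0 to 1 without single replicates. It was 4 without Trem2-MKO replicates 2 and 3 (all loci, 9.76%), where a single Trem2-MKO library was left and the rule was easier to meet. The ratio to like length in LysM-Cre, 1.10, was 0.949 with equal lists and 1.01 with the 25 kb flank (1.06 to 1.15 without single replicates). In Trem2-MKO it was 1.58 ± 1.55 at the −log10 q limit, 0.841 with equal lists and 0.893 with no flank (0.951 to 1.03 without single replicates); the cause was not tested. The gene-end share, 13.3%, was 3.33% and 0% at the −log10 p and q limits, where the cause was not tested. With equal lists it was 5%, and counted by summit 10.3%, both within the wide spread between libraries (SD 9.46). It was 23.5% with a window of 2.5 kb, which is longer, and 11.0% to 16% without single replicates. The permutation test called 0 loci in each of its 15 alternatives, which says nothing of stability, since its p cannot go below 0.1. Among these was a permutation test with the replicate number as a block, which called 0 loci and had a smallest possible p of 0.25. Same-numbered libraries had correlations of −0.0609, −0.0581 and −0.0139, none best with its own number. Those of other pairs ran from −0.0508 to 0.0783. All were small, so they cannot tell whether the numbers pair the libraries. With a median of 11 to 23 fragments per summit, weakly marked loci may have gone uncalled.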

Other observations

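Among 76 further liver and tumour genes (plasma proteins, hepatocyte metabolism, bile acid and drug handling, liver transcription factors, Wnt and Hippo pathway, proliferation), 62 loci were marked in some library (81.6%; like length, 76.2%). By list, in that order, these were 8 of 12 (like length, 66.1%), 10 of 12 (79.8%), 9 of 12 (73.9%), 11 of 12 (78.0%), 15 of 16 (79.9%) and 9 of 12 (77.9%). Ankrd1, a target gene of YAP and TAZ, was the only one with peaks in all LysM-Cre libraries, 1 in each, and none in Trem2-MKO; 1.39% of all loci met that rule, and the gene was singled out after its values were seen. Birc5, the mitotic gene of survivin, was the only one with a gene-end peak in 2 libraries, 1 of each genotype (2.17% of all loci).

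Marker loci of other cells in the tumour were marked as well. Peaks in some library lay at 5 of 5 endothelial (like length, 85.8%), 5 of 5 stellate and fibroblast (78.5%), 5 of 8 macrophage (69.5%) and 5 of 6 cholangiocyte or progenitor markers (67.3%). They lay at 3 of 5 T cell (65.0%; the sixth, Trac, was not matched), 2 of 4 B cell (70.0%) and 3 of 6 hepatocyte markers (73.1%). Pecam1 (endothelial, a gene of 61.1 kb) and Adgre1 (macrophage F4/80) were marked in 6 of 6 libraries, and both were singled out after their values were seen. None of the 45 genes above was marked in 6, but longer genes were marked more often. The share of all loci marked in 6 libraries was not counted, so no contrast between cell types is drawn. Peaks in 4 or more libraries were found at 12.5% of all loci. Adgre1 had 3, 1 and 3 peaks in LysM-Cre replicates 1 to 3 and 2, 1 and 1 in Trem2-MKO, over a gene of 125 kb. It had gene-end peaks in 3 libraries, 1 of LysM-Cre and 2 of Trem2-MKO. Gene-end peaks in 2 or more libraries were found at 2.17% of all loci.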
